A study of Mus musculus with 2 samples.

Results

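The genes described here encode the respiratory chain of mitochondria, read from RNA-seq counts of mouse spleen γδ T cells before and after expansion. They were chosen by symbol: every gene of the deposited table whose name begins with Nduf, Uqcr, Cox4 to Cox8 or Atp5, together with Sdha, Sdhb, Sdhc, Sdhd, Cyc1 and Cycs. The rule took 95 of 24091 genes. It used no measured value, but it was set with earlier results of these data known. Of these, 83 encode structural subunits of complexes I to V (36, 4, 9, 19 and 15 genes, respectively). The other 12 are 9 assembly factors of complex I, the supercomplex factor Cox7a2l, the electron carrier gene Cycs and Atp5s, which encodes coupling factor B.

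There were 2 libraries, each a single sample of total RNA from γδ T cells of mouse spleen. The library GDT_minus_IL2 is labelled freshly isolated. The library GDT_plus_IL2 is labelled IL-2 expanded, and per the labels' protocols the sorted cells received plate-bound anti-CD3, soluble anti-CD28 and IL-2 at 100 U/ml, with an expansion of 5 days. Both libraries carry the same protocol text, so the reading of the first library as uncultured rests on its treatment label and the series design, and IL-2 alone cannot be told apart from activation and culture. Below, these are called the fresh and the expanded library. No strain, sex or age of the mice is used here, and nothing states whether animals were pooled.

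The respiratory chain carries electrons from NADH and succinate to oxygen and uses the protons pumped on the way to make ATP. Complex I oxidises NADH, complex II oxidises succinate, complex III passes electrons from ubiquinol to cytochrome c, complex IV hands them to oxygen, and complex V is the ATP synthase. Complexes I, III, IV and V combine nuclear gene products with proteins encoded by mitochondrial DNA, and the mitochondrially encoded genes were not analysed here. T cell activation is known to enlarge the mitochondrial network.

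With 1 library per group there was no spread between samples, no difference had a replicate check, and no test was made. Each library's level is given in CPM, counts per 1000000 of a library size scaled by TMM (a trimmed mean of gene ratios), and intervals are exact 95% Clopper-Pearson intervals that cover counting error only. Total counts were 20379385 in the freshly isolated and 22204099 in the expanded library, so that 1 count equalled 0.0465 and 0.0476 CPM. T cell receptor δ and γ chain genes, which would define the labelled cells, were not analysed here. Of 8 T cell markers (Cd3e among them), the summed level was 4914 CPM in the fresh and 5249 CPM in the expanded library, but 5 were lower in the expanded library, among them Lck (1184 and 563 CPM) and Cd2 (396 and 76.2 CPM), and Thy1 was higher (847 and 2278 CPM). The 10 B cell markers summed to 917 and 3.81 CPM, but Jchain alone gave 784 CPM of the fresh sum. In expanded cells 6 of the 10 had 0 counts, among them Jchain and the defining genes Cd79a, Ms4a1 and Pax5. Those defining genes stood at 9.90, 9.57 and 1.86 CPM in the fresh library. The 14 macrophage and monocyte markers summed to 1079 and 20.9 CPM with 10 at 0 in the expanded library, including C1qa, Lyz2 and Vcam1, and the 7 erythroid markers summed to 93.3 CPM and 0 counts. These markers of other cells were thus lower in the expanded library, opposite to most respiratory chain genes, and their part in the results below was not tested. In bulk RNA, a different number of cells of a type and a different amount of RNA per cell cannot be told apart.

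Transcripts of the respiratory chain were higher in the expanded library as a whole. The 83 structural genes took 0.577% of all counts before expansion (interval 0.574 to 0.580) and 0.984% after it (0.980 to 0.988). Their summed level was 5464 CPM in the fresh and 10397 CPM in the expanded library, a ratio of 1.90 (interval 1.89 to 1.92). Genes were compared where the mean of both libraries reached 1 CPM, and 75 of the 83 did. Of these 75, 31 stood 2-fold or more above the fresh library, against 22.4% of the 11715 genes compared, and 1 stood 2-fold or more below it, against 25.0%. The other 43 lay between. On the log2 scale (expanded against fresh library, prior count 2), their median fold was 0.86, against 0.04 over all genes compared and 0.13 over the 8951 genes whose mean reached 10 CPM. The counting interval of the fold lay above 1 for 71 of the 75 (45.5% of all genes compared) and below 1 for 3 (43.3%). The differences were mostly small: 4 of the 75 were at least 4-fold higher (8.92% of all genes) and none at least 4-fold lower (13.5%). The 31 and the 4 both include Cox6a2, and the 1 gene 2-fold below is Cox7c. Each of these passed the filter only through the library where it was higher. When libraries were scaled by total count instead, the median of all genes moved by -0.16, and 21 of 74 structural genes were at least 2-fold higher, against 19.1% of genes.

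**Figure D1:**
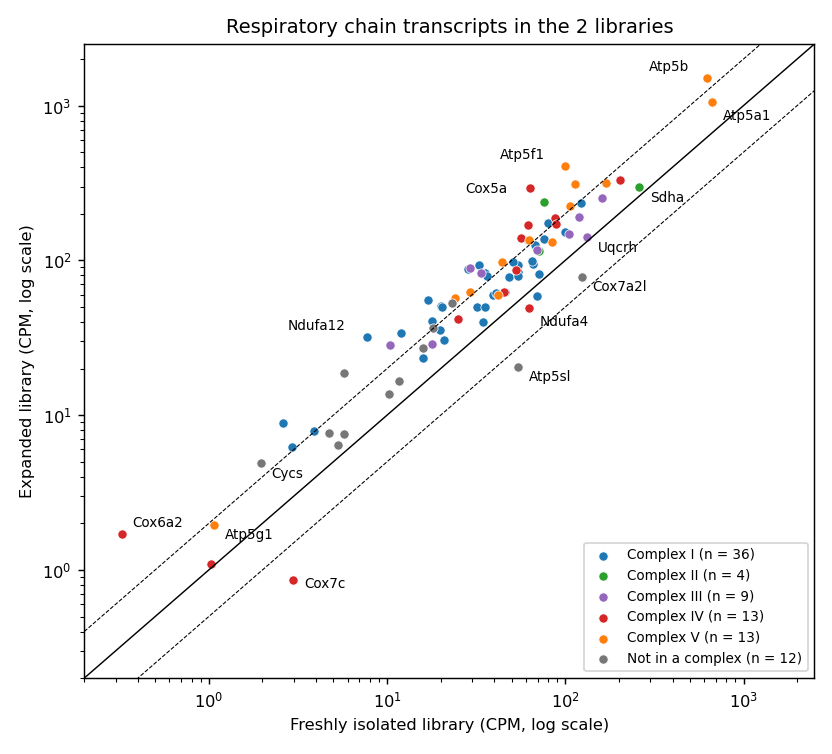
CPM of each member whose mean reached 1 CPM in the freshly isolated (x axis) and the expanded library (y axis), both on log scales, coloured by complex. The solid line marks equal levels and the dashed lines 2-fold differences; most points lie above the solid line, Cox7c and Atp5sl lie below the lower dashed line, and Atp5b and Atp5a1 have the highest levels in both libraries.

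Promoters were compared because most of these genes were higher together. Of 95 members, 78 matched the RefSeq promoter table of GRCm38.p6 (3 through an older symbol), with windows of 250 bases before to 50 after the start. The palindrome bound by NRF1, a factor known for nuclear respiratory genes, reads the same on both strands and was found in 7 of 78 members (8.97%), against 1.07% of 27025 genes with a promoter and 2.44% of the 9194 that passed the expression filter. The ETS letters CCGGAAGT or CCGGAAGC, bound among others by GABP and searched on both strands, were found in 12 of 78 (15.4%), against 7.16% and 15.9%. Over all matched members, the ETS share was thus near that of expressed genes, but it was uneven by complex. The ETS letters were found in 1 of 32 structural genes of complex I, 1 of 3 of II, 2 of 5 of III, 3 of 13 of IV and 4 of 14 of V. The NRF1 palindrome was found in 1 of 32, 0 of 3, 1 of 5, 1 of 13 and 2 of 14, respectively. The members with the NRF1 palindrome were Atp5g2, Atp5k, Cox6a1, Ndufa11, Ndufaf4, Ndufaf5 and Uqcrc1, and their folds ranged from the 1.43-fold of Ndufaf5 to the 2.37-fold of Atp5k, with Atp5g2 under the filter. The 250 bases before the start are shown 5′ to 3′ for 3 of them and for Cox5a, which had the largest log2 fold (prior count 2) of the structural genes past the filter and whose window held neither motif. Capitals mark the NRF1 palindrome in Cox6a1, Atp5k and Ndufaf4 and, nearer the start of Cox6a1, the ETS letters; those of Atp5k lay outside the stretch shown.
Cox6a1 (chr5:115348959-115349208, minus strand): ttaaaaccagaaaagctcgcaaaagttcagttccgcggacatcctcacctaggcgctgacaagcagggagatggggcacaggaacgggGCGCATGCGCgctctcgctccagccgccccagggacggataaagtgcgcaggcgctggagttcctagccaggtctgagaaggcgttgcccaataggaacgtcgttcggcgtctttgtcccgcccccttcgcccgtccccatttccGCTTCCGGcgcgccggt
Atp5k (chr5:108434400-108434649, minus strand): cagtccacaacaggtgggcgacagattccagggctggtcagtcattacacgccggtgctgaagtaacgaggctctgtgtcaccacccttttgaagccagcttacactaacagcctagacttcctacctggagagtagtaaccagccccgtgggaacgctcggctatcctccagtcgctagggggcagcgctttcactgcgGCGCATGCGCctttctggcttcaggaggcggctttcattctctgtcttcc
Ndufaf4 (chr4:24897833-24898082, plus strand): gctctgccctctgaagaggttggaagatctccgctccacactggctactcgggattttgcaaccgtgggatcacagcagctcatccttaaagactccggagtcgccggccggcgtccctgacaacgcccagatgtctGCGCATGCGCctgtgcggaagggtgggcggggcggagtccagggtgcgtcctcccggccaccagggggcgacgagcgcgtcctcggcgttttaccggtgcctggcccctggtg
Cox5a (chr9:57520982-57521231, plus strand): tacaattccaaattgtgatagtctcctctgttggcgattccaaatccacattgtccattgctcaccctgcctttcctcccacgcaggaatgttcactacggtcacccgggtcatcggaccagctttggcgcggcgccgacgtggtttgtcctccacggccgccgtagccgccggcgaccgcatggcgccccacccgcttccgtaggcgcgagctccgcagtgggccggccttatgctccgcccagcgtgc
The NRF1 palindrome began 162 bases before the start in Cox6a1, 50 in Atp5k and 113 in Ndufaf4. A match is a description of letters, and the binding of these factors was not measured here.

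The short transcripts of these genes were compared by length with all genes. Of the structural genes past the filter, the 51 with a deposited length under 1 kb had a median log2 fold of 1.07, and the 24 of 1 kb or more had 0.72. Over all genes compared, the 669 under 1 kb had a median of 0.39 and the 11046 longer ones 0.02. Short genes thus had the higher median both among the subunits and over all genes, and the part of length in the members' folds was not tested. Across the 75 structural genes, the log2 fold had a Spearman rho of -0.002 with length and 0.007 with mean CPM, values that describe these genes only, since all come from the same 2 libraries.

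Complex I has a catalytic core, with iron-sulphur and flavin subunits, surrounded by many accessory subunits. Its 36 genes, all past the filter, summed to 1500.3 CPM in the fresh and 2633 CPM in the expanded library, a ratio of 1.76 (interval 1.73 to 1.78). Of the 36, 13 (36.1%) were at least 2-fold higher and none was 2-fold lower, against 22.4% and 25.0% of all genes compared. The median log2 fold of the 36 was 0.85. All 13 were accessory subunits (13 of 29, median 0.93), whereas none of the 7 nuclear core subunits was 2-fold apart (median 0.60). Whether core and accessory subunits differ was not tested.

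Among the core subunits, Ndufs1, the largest iron-sulphur subunit, stood at 99.3 CPM in the fresh and 152 CPM in the expanded library, 1.53-fold higher. Ndufv1, which binds NADH and the flavin, stood at 65.8 and 94.996 CPM, 1.44-fold higher (1.35 to 1.55), and its partner Ndufv2 at 67.3 and 126 CPM. The core subunits toward the membrane were also each under 2-fold higher. Ndufs7 stood at 34.7 and 39.8 CPM, 1.15-fold higher (1.04 to 1.27), the smallest fold of the core, while Ndufs8 stood at 39.3 and 59.7 CPM and Ndufs3 at 20.9 and 30.6 CPM. The core subunits named here thus differed by 1.15-fold to 1.88-fold, each higher in the expanded library.

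The accessory subunit furthest up was Ndufa12 (chromosome 10, 94199009 to 94220948, build GRCm38), at 7.71 CPM in the fresh and 31.97 CPM in the expanded library, 4.15-fold higher (3.49 to 4.94). Its paralogue Ndufaf2, an assembly factor that occupies the place of Ndufa12 during assembly, stood at 5.76 and 18.8 CPM, 3.27-fold higher (2.67 to 4.03). Ndufab1, the mitochondrial acyl carrier protein, stood at 2.602 and 8.90 CPM, 3.42-fold higher (2.52 to 4.70). Of the Ndufa12 and Ndufab1 transcripts, 53.8% and 66.6% of 50-base stretches also occur in annotated pseudogenes elsewhere, so their levels are uncertain. Ndufb6 was at 17.0 and 55.5 CPM and Ndufc2 at 28.5 and 88.1 CPM, both membrane-arm subunits and both over 3-fold higher. Ndufb9 (32.8 and 93.6 CPM), a subunit that docks the acyl carrier protein, and Ndufc1 (12.03 and 33.9 CPM) were 2.85-fold and 2.81-fold higher. The other accessory subunits at least 2-fold higher were Ndufa5, Ndufb3, Ndufa8, Ndufs6, Ndufa10, Ndufb7 and Ndufs5, with folds from 2.13 to 2.51.

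A single complex I gene was lower in the expanded library. Ndufa6, which like Ndufb9 docks an acyl carrier protein, stood at 69.1 CPM in the fresh and 59.3 CPM in the expanded library, 1.17-fold lower (1.08 to 1.26). Ndufb11 was close to even at 70.8 and 81.5 CPM, and Ndufa3 stood at 45.7 and 62.4 CPM. The deposited span of Ndufb11 overlaps Rbm10 on the other strand, and without a stated strand setting reads of the pair cannot be told apart, which holds for opposite-strand partners of any of the 17 members whose spans overlap another gene. The remaining accessory subunits (Ndufa1, Ndufa2, Ndufa7, Ndufa9, Ndufa11, Ndufa13, Ndufb2, Ndufb4, Ndufb5, Ndufb8, Ndufb10, Ndufs4 and Ndufv3) were higher by 1.42-fold to 2.01-fold in plain CPM; the largest of these, Ndufb4 (3.90 and 7.85 CPM), had a log2 fold of 0.99 with the prior count.

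**Figure D2:**
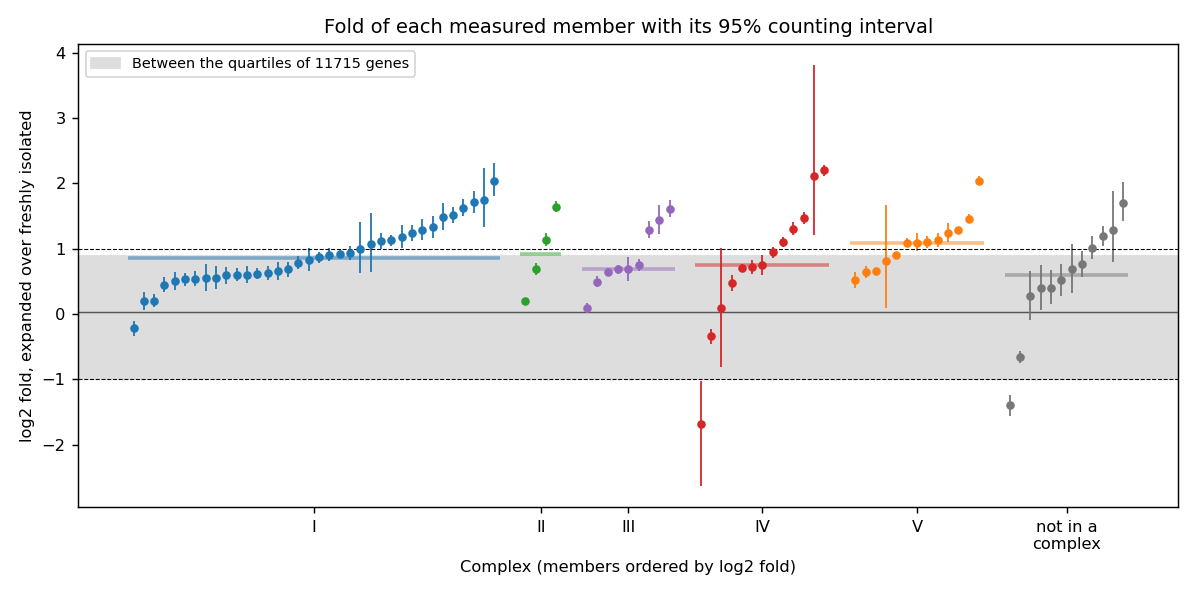
Log2 fold (expanded over freshly isolated, y axis) of the 87 members past the 1 CPM filter, ordered within each complex (x axis), with vertical lines for the 95% counting interval, a horizontal bar at each complex's median and a grey band between the quartiles of all 11715 genes. Complexes I, II, III and V lie almost wholly above 0, with Ndufa6 alone below it, and complex IV spans from Cox7c at -1.69 to Cox5a at 2.20.

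Complex II, succinate dehydrogenase, also serves the TCA cycle and is encoded wholly in the nucleus. Its 4 genes summed to 469 and 785 CPM, a ratio of 1.67 (interval 1.63 to 1.72), and their folds were unequal. Sdha, the flavoprotein, was the most abundant at 260.2 CPM in the fresh and 298 CPM in the expanded library, 1.14-fold higher (1.10 to 1.19). Sdhb, the iron-sulphur subunit that pairs with it and lies on chromosome 4 (140961271 to 140979192), stood at 75.7 and 237 CPM and was 3.13-fold higher (2.96 to 3.31). The membrane anchors stood between, with Sdhc at 71.1 and 115 CPM and Sdhd at 61.8 and 136 CPM, 2.20-fold higher (2.06 to 2.35). Sdha took 55.5% of the counts of complex II in freshly isolated and 37.9% in expanded cells, and without it the summed ratio was 2.34. Per kilobase of the deposited gene length, Sdha led the complex in freshly isolated cells (91.5 CPM per kb, against 71.1 for Sdhb) and Sdhb in expanded cells (222 CPM per kb, against 105 for Sdha).

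Complex III had the smallest summed ratio of the 5 complexes. Its 9 genes stood at 678 CPM in the fresh and 1077 CPM in the expanded library in sum, a ratio of 1.59 (1.56 to 1.62). Of the 9, 3 (33.3%) were at least 2-fold higher and none 2-fold lower, against 22.4% and 25.0% of all genes compared. The median log2 fold of the 9 was 0.68. The redox subunits were each under 2-fold higher. Uqcrfs1, the Rieske iron-sulphur protein, stood at 105 and 148 CPM, 1.41-fold higher (1.33 to 1.49), and Cyc1, which encodes cytochrome c1, at 69.7 and 117 CPM, 1.67-fold higher (1.57 to 1.79). The core proteins Uqcrc2 (160.2 and 251 CPM) and Uqcrc1 (119 and 191 CPM) were 1.57-fold and 1.61-fold higher, and the small subunit Uqcrb (18.0 and 28.9 CPM) was 1.61-fold higher. The 3 genes past 2-fold encode small accessory subunits. Uqcrq stood at 29.3 and 89.5 CPM, 3.05-fold higher (2.79 to 3.35), Uqcr11 at 10.5 and 28.4 CPM and Uqcr10 at 33.9 and 82.9 CPM. Uqcrh, the hinge protein that contacts cytochrome c1, stood at 132 and 141 CPM, 1.06-fold higher (1.01 to 1.12), but scaling by total count gave it a log2 fold of -0.07. It had the highest level per kilobase of complex III in both libraries (244 and 260 CPM per kb).

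Cycs encodes cytochrome c, the carrier between complexes III and IV. It had 42 and 103 counts, or 1.95 CPM in the fresh and 4.90 CPM in the expanded library, 2.51-fold higher (1.74 to 3.69). At 0.638 and 1.60 CPM per kb, it lay far below the median structural gene (59.0 and 105 CPM per kb). Of its 50-base stretches, 28.5% also occur in transcripts of genes elsewhere, so the absolute level is uncertain.

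Complex IV, cytochrome c oxidase, had the widest range of folds. Its 19 genes summed to 751 CPM in the fresh and 1537 CPM in the expanded library, a ratio of 2.05 (2.01 to 2.08). Of the 13 past the filter, 5 (38.5%) were at least 2-fold higher and 1 (7.69%) lower, with a median log2 fold of 0.74. Over all genes compared, these shares were 22.4% and 25.0%. The 5 include Cox6a2 and the 1 is Cox7c, and each passed the filter only through the library where it was higher. Cox5a (chromosome 9, 57521232 to 57532426), a nuclear subunit on the matrix side, had the largest log2 fold (prior count 2) of the structural genes past the filter. It stood at 63.7 CPM in the fresh and 293 CPM in the expanded library, 4.598-fold higher (4.34 to 4.88). The sparsely counted Cox6a2, described below, had a larger plain ratio (5.27, interval 2.31 to 14.02), and at a prior count of 0.5 its log2 fold was 2.32, against 2.20 for Cox5a. Per kilobase, Cox5a was 16th of the 95 members in freshly isolated cells (92.8 CPM per kb) and 5th in expanded cells (427 CPM per kb). Cox4i1, the subunit of highest level in the complex, stood at 203 and 330 CPM, 1.63-fold higher (1.57 to 1.69), and Cox5b at 25.04 and 42.0 CPM.

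Of the smaller subunits, Cox7b (61.4 and 170.3 CPM), Cox7a2 (56.4 and 139 CPM) and Cox6a1 (87.8 and 188 CPM) were 2.77-fold, 2.47-fold and 2.15-fold higher. Cox6b1 (88.9 and 171 CPM), Cox6c (52.8 and 86.6 CPM) and Cox8a (45.0 and 62.4 CPM) were higher by less than 2-fold. Ndufa4, named for complex I and since assigned to complex IV, was lower in the expanded library, at 62.6 and 49.3 CPM, 1.27-fold lower (1.17 to 1.38). Its place per kilobase among the 95 members went from 10th (128 CPM per kb) to 42nd (101 CPM per kb). Cox7c was the 1 structural gene at least 2-fold lower, with 64 counts in freshly isolated and 18 in expanded cells (2.97 and 0.856 CPM), 3.47-fold lower (2.03 to 6.23). It passed the filter only through the freshly isolated library, and 48.2% of its 50-base stretches occur elsewhere in the annotated transcripts.

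Several subunits of complex IV have a second form made mainly in muscle, lung or testis. In both libraries nearly all counts came from the ubiquitous form. Cox4i1 took 99.9% of the Cox4 counts in freshly isolated cells, with 6 counts for Cox4i2, and all 6935 counts in expanded cells, where 0 counts allow a level of up to 0.143 CPM (3 counts). The muscle form Cox6a2 had 7 and 36 counts (0.325 and 1.71 CPM), or 0.369% (interval 0.149 to 0.759) and 0.901% (0.632 to 1.25) of the Cox6a counts, and passed the filter only through the expanded library; its span overlaps Itgad on the other strand. The muscle form Cox7a1 did not pass the filter. It had 1 and 22 counts, a ratio of 22.5 (interval 3.64 to 930), which were 0.0822% and 0.746% of the counts of Cox7a2 and Cox7a1 together. The measured share of both muscle forms was thus under 1% of their pairs in either library. Cox6b2, the testis form, was level at 22 and 23 counts, with a fold interval of 0.570 to 2.01 and a log2 fold of -0.05 under total count scaling. Cox7b2, Cox8b and Cox8c had 0 counts in both libraries, and Ndufa4l2 had 2 and 1.

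Complex V, the ATP synthase, had the highest summed level and the largest summed ratio, at 2066 CPM in the fresh and 4365 CPM in the expanded library, 2.11-fold (2.09 to 2.14). Atp5b held 34.6% of its counts in expanded cells. Without Atp5b in V, Cox4i1 in IV and Sdha in II, the summed ratios of IV and II were above that of V. Each of these genes had the highest count of its complex in the expanded library. In the fresh library Atp5a1 had the highest count of complex V (32.3%). The ratio without Atp5a1 is not given here, so this order holds for that choice of genes only. Of 13 complex V genes past the filter, 8 (61.5%) were at least 2-fold higher and none lower, with a median log2 fold of 1.09. Over all genes compared, these shares were 22.4% and 25.0%. Its share of the counts of all structural genes was 37.8% in freshly isolated and 42.0% in expanded cells, while that of complex I was 27.5% and 25.3%. Under total count scaling, 4 of the complex V genes were at least 2-fold higher, against 19.1% of all genes compared.

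The catalytic head of the synthase alternates α and β subunits around a turning γ shaft. Atp5b, the β subunit that carries the catalytic sites (chromosome 10, 128083307 to 128090388), gave 621 and 1509.85 CPM and was 2.43-fold higher (2.38 to 2.48). Atp5a1, the α subunit, stood at 668 and 1051 CPM, 1.57-fold higher (1.54 to 1.61). The α transcript was therefore the more abundant of the pair by CPM in freshly isolated cells and the β transcript in expanded cells, but per kilobase Atp5b was the higher in both libraries (333 against 276 in freshly isolated, 808 against 434 CPM per kb in expanded cells). Of the shaft genes, Atp5c1 (169 and 314 CPM) and Atp5e (84.2 and 131 CPM) were under 2-fold higher, and Atp5d stood at 106 and 226 CPM, 2.13-fold higher.

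The peripheral stalk holds the head still. Atp5f1, its b subunit (chromosome 3, 105942678 to 105960248), was at 99.1 and 408 CPM, 4.12-fold higher (3.92 to 4.32), the member furthest up in complex V. Its deposited span overlaps Wdr77 on the other strand, and 23.2% of its 50-base stretches occur in pseudogenes. Atp5j, whose span overlaps Gabpa on the other strand, stood at 44.4 and 97.2 CPM and Atp5o at 62.5 and 134 CPM, 2.19-fold and 2.15-fold higher. Atp5h was the member of the complex past the filter that moved least, at 42.0 and 60.2 CPM, 1.43-fold higher. Of the 50-base stretches of Atp5h and Atp5o, 50.5% and 21.3% also occur in pseudogenes, so their levels are uncertain. The membrane subunits Atp5k (24.2 and 57.5 CPM) and Atp5j2 (29.1 and 62.2 CPM) were 2.37-fold and 2.13-fold higher.

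The rotor ring is built from 1 protein, subunit c, encoded by Atp5g1, Atp5g2 and Atp5g3. Atp5g3 stood at 113 and 311 CPM, 2.74-fold higher (2.62 to 2.88), and took 98.51% of the subunit c counts in freshly isolated and 99.3% in expanded cells. Atp5g1 had 23 and 41 counts (1.07 and 1.95 CPM) and Atp5g2 had 14 and 4. Of the 50-base stretches of Atp5g1 and Atp5g2, 56.2% and 46.4% occur elsewhere, against none for Atp5g3, so the division of counts among the 3 genes is uncertain. Atp5l, a subunit of the membrane part with 17 and 11 counts, shared 68.5%.

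**Figure D3:**
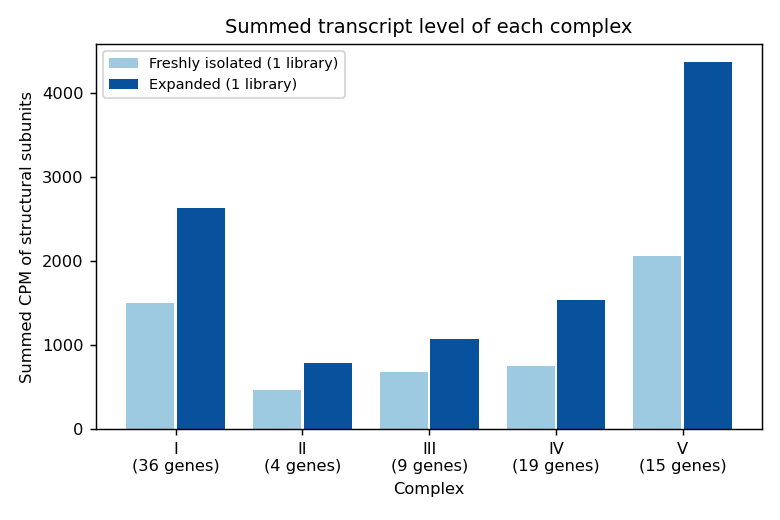
Summed CPM (y axis, from 0) of the structural subunits of each complex (x axis) in the freshly isolated and the expanded library, 1 bar per library. Each complex is higher in the expanded library, from a ratio of 1.59 in complex III to 2.11 in complex V.

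Several low levels among these genes went together with sequence shared with other genes. Of 94 members with a GENCODE M21 transcript, 58 shared no 50-base stretch with a gene at another place, and 16 shared 20% or more, 15 of them with at least 1 annotated pseudogene. Of those named above without this share, Uqcrb shared 43.2%, Ndufs5 41.2%, Ndufb4 37.0%, Ndufs3 35.8%, Cox5b 30.6% and Cox6c 21.15%. The levels of these genes are likewise uncertain. The 13 structural genes past the filter that shared 20% or more had a median of 22.4 CPM per kb in freshly isolated and 57.4 in expanded cells, and the other 62 had 63.4 and 107. The folds of these groups were close, with medians of 0.81 and 0.88 on the log2 scale. Counters with common settings drop reads that match several places, but the read length and settings are not given in the sources used here, and the part of shared sequence in single levels was not tested.

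**Figure D4:**
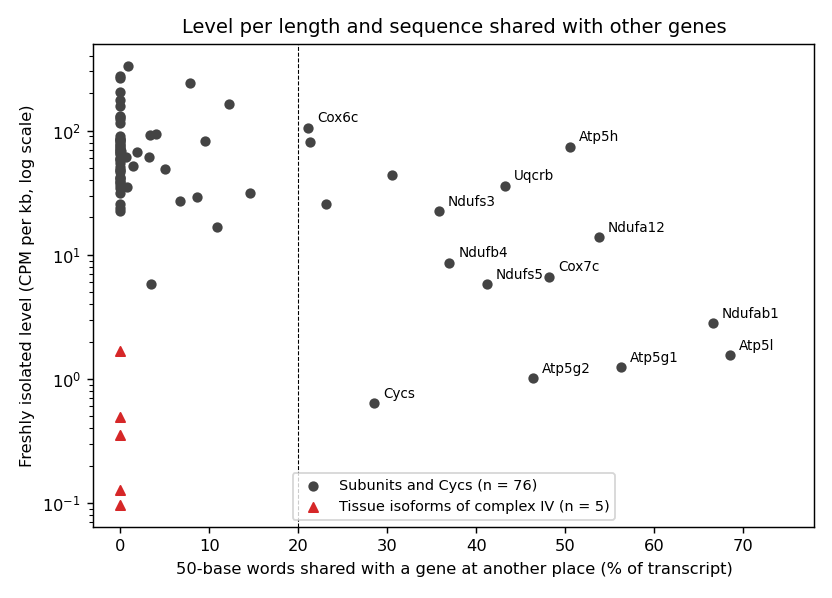
Level per length in the freshly isolated library (CPM per kb, log scale, y axis) against the share of each transcript's 50-base stretches found in a gene at another place (x axis), for structural genes and Cycs with at least 1 count. The dashed line marks 20%; Atp5l, Atp5g1, Atp5g2, Ndufab1 and Cycs lie low on its right, and the tissue isoforms of complex IV (triangles) are low without shared sequence.

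The levels of subunits per kilobase were correlated between the libraries, less so within some complexes. Across the 75 structural genes past the filter, log2 levels per kilobase had a Pearson r of 0.94 and a Spearman rho of 0.89 between the 2 libraries, a description over genes that share both libraries. Among the 62 genes under 20% shared, the Spearman rho was 0.86. Within these it was 0.81 in complex I (31 genes), 0.69 in III (8), 0.76 in IV (10) and 0.97 in V (9). The same correlation over all genes is not given here. Among the 31 complex I genes with little shared sequence, the standard deviation of the log2 level per kilobase was 0.85 in freshly isolated and 0.80 in expanded cells. These deviations describe spread and not order. Ndufa3 had the highest level per kilobase of complex I in both libraries (132 and 181 CPM per kb), and Ndufa11 the lowest of those 31 (5.83 and 10.4). The deposited length of Ndufa11 (3.39 kb) is longer than its 918-base coding transcript, which lowers its value per kilobase.

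Of the 9 assembly factors of complex I caught by the symbol rule, 3 (33.3%) were at least 2-fold higher and 1 (11.1%) lower. Over all genes compared, these shares were 22.4% and 25.0%. The higher ones were Ndufaf2, given above, Ndufaf4 (23.1 and 52.9 CPM) and Ndufaf7 (18.0 and 36.4 CPM). Atp5sl, since renamed Dmac2 and known for assembly of the distal membrane arm, was at 54.1 and 20.5 CPM, 2.63-fold lower (2.35 to 2.95). Ndufaf1, Ndufaf3, Ndufaf5, Ndufaf6 and Ndufaf8 were higher by 1.32-fold to 1.70-fold. Cox7a2l, which joins complexes III and IV in supercomplexes, stood at 124 and 78.3 CPM, 1.58-fold lower (1.49 to 1.69), and went from 13th to 54th of the 95 members per kilobase. Atp5s stood at 5.30 and 6.42 CPM, with an interval that holds 1 (0.938 to 1.57).

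Other genes of oxidative metabolism were read from lists of general knowledge. The list of assembly factors of complexes I to V had 53 measured genes. Of these, 8 were among the members, without Atp5sl, which was 2-fold lower as given above. In the list, 18 (34.0%) were at least 2-fold higher and 1 (1.89%) lower, against 22.4% and 25.0% of all genes compared. The median log2 fold of the list was 0.68. Coa4, a complex IV assembly factor, was furthest up at 3.11 and 15.7 CPM, 5.04-fold higher (3.87 to 6.66), followed by the complex III factor Uqcc2 at 15.1 and 56.0 CPM. Sdhaf1, which serves iron-sulphur insertion into Sdhb, was the lower one of this list at 30.1 and 12.7 CPM, 2.37-fold lower (2.05 to 2.74), while Sdhb itself was 3.13-fold higher. Cox16, the next furthest down in the list, was at 2.14 and 1.57 CPM.

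Of the 18 genes of pyruvate dehydrogenase and the TCA cycle, 9 (50%) were at least 2-fold higher and none lower. Over all genes compared, these shares were 22.4% and 25.0%. The median log2 fold of the 18 was 0.97. Pcx, pyruvate carboxylase, was furthest up at 3.76 and 35.4 CPM, 9.41-fold higher (7.47 to 11.98), and Fh1, fumarase, followed at 37.5 and 116 CPM. The pyruvate dehydrogenase subunit Pdhb (77.9 and 67.3 CPM) and the oxoglutarate dehydrogenase Ogdh (293 and 301 CPM) were furthest down.

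Of 18 genes that feed or make ubiquinone, 7 (38.9%) were at least 2-fold higher and 2 (11.1%) lower (median 0.59). The shares over all genes compared were 22.4% and 25.0%. The furthest apart were Coq3 (5.39 and 29.4 CPM), the electron transfer flavoprotein gene Etfb (34.9 and 158 CPM) and the glycerol phosphate dehydrogenase Gpd2 (54.7 and 245 CPM) above, and Coq8a (18.2 and 2.95 CPM) and Coq10b (89.0 and 24.7 CPM) below. Genes of ubiquinone synthesis thus lay on both sides.

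Porins, carriers, import and inner membrane genes had 13 of 19 (68.4%) at least 2-fold higher and none lower (median 1.34). The shares over all genes compared were 22.4% and 25.0%. The chaperone Hspd1 stood at 84.0 and 349.8 CPM, 4.16-fold higher, and Atpif1, the inhibitor of the ATP synthase, at 21.2 and 84.2 CPM, 3.97-fold higher (3.58 to 4.42). The phosphate carrier Slc25a3, which supplies the synthase, was lower at 791 and 635 CPM, 1.25-fold (1.22 to 1.27), and Tomm20 stood at 41.4 and 49.2 CPM. The mitochondrial ribosomal proteins were taken by symbol, and this list was added after values were seen. Of their 76 measured genes, 43 (56.6%) were at least 2-fold higher and none lower. Their median was 1.07, and the same shares over all genes apply.

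Regulators of mitochondrial gene expression and mitochondrial DNA upkeep had a median log2 fold of -0.25. Of 20, 2 (10%) were at least 2-fold higher and 4 (20%) lower, both shares under the 22.4% and 25.0% of all genes compared. Tefm (4.97 and 12.7 CPM) and Tfb1m (8.55 and 21.7 CPM) were the higher ones. Ppargc1a, the coactivator PGC-1α, had 55 counts in the fresh library and 1 in the expanded library, a ratio of fresh to expanded of 53.7 (interval 9.25 to 2160), and passed the filter only through the fresh library. The polymerase subunits Polg2 (37.0 and 5.38 CPM) and Polg (96.9 and 25.5 CPM) and the coactivator Ppargc1b (13.4 and 2.997 CPM) were lower too. Nrf1, Tfam and Gabpa, which encode factors known for nuclear respiratory and mitochondrial genes, stood at 71.8 and 58.4 CPM, 83.9 and 63.3 CPM, and 83.9 and 119 CPM.

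**Figure D5:**
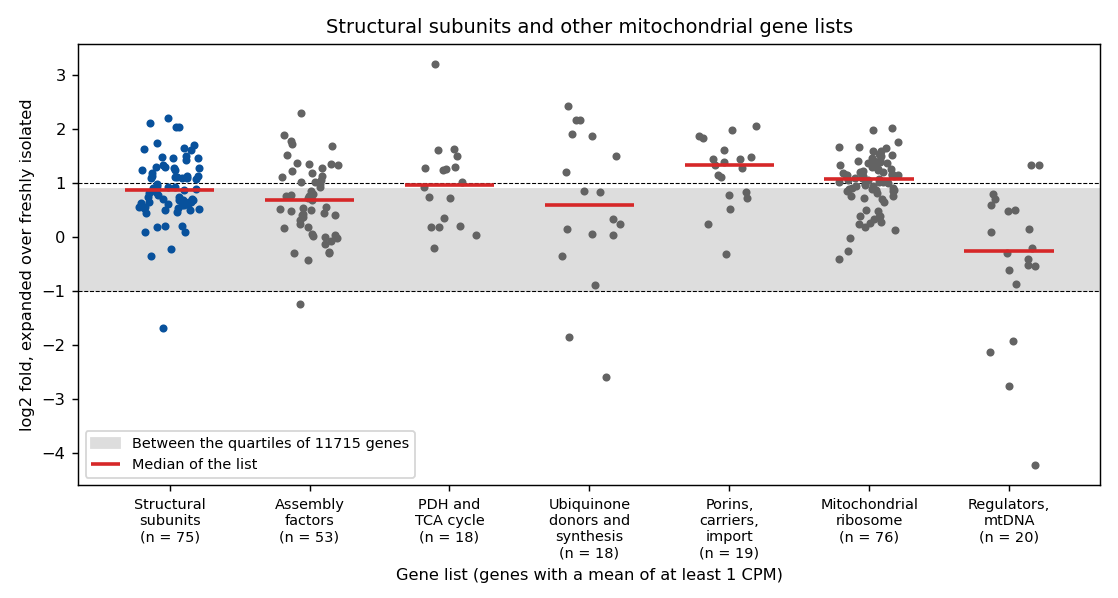
Log2 fold (expanded over freshly isolated, y axis) of each measured gene in the structural subunits and 6 other mitochondrial gene lists (x axis), with a red bar at each list's median, dashed lines at 2-fold and a grey band between the quartiles of all 11715 genes. The regulators have a median below 0 (-0.25), and the other lists have medians from 0.59 to 1.34.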

How the data were processed

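RNA-seq read counts of 1 freshly isolated and 1 expanded library were used. The deposited values are whole-number counts per gene, not normalised, and the table also gives a length in kb per gene. Per the submitters' processing notes, the tools were STAR 2.6.0, bcl2fastq 2.18.0.12, edgeR 3.28.1 and HTSeq 0.6.0, with the builds mm10 and GRCm38; their roles, the annotation, strand setting and read length are not given in the sources used here. Columns were matched by title. Counts were scaled with TMM factors (1.06 and 0.947; edgeR 4.0.16, R 4.3.3). Log2 folds use a prior count of 2, single folds are plain CPM ratios, and genes whose mean over both libraries reached 1 CPM were compared and called at 2-fold. With 1 library per group no p-value was computed. Intervals are exact Clopper-Pearson 95%. The reads carry no stated molecular identifiers and may hold PCR copies, so these intervals, and floors of 3 counts, cover counting error only.

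Subunits were assigned to complexes from general knowledge. The members and lists were chosen with earlier results of these data known. Named genes are the catalytic subunits, the 3 members furthest up and down per complex, the highest member, isoform sets, members 2-fold apart, and the 2 genes furthest up and down per list with those 4-fold apart; further members were named to account for the rest, and 1 member is counted but not reported by name here. The mitochondrial ribosome list, the ranks per kilobase and the regulators Nrf1, Tfam and Gabpa were chosen after values were seen. Shared 50-base stretches were exact matches, on either strand, between the GENCODE M21 coding transcript nearest the deposited length and transcripts of genes at another place. The calculation was tested on simulated data. Alternatives were total count, DESeq2 1.42.0 size factors, upper quartiles, total count after removal of each library's 50 most abundant genes, prior counts of 0.5 and 5, and no filter or one of 5 CPM.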

Additional observations from a re-analysis of the deposited data

How the results depend on the processing

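No replicate could be left out with 1 library per group. No paired analysis was possible because each group has 1 sample. Under total count scaling the median log2 fold of the structural subunits was 0.69, and medians were 0.69, 0.76, 0.53, 0.57 and 0.93 for complexes I to V, 0.53 for assembly factors, 1.18 for porins and carriers, 0.43 for ubiquinone genes, 0.81 for the TCA cycle and -0.41 for regulators. Members at least 2-fold higher were then 1 in complex II, 3 in IV and 4 in V, against 19.1% of all genes compared. Uqcrh (-0.0705) and Cox6b2 (-0.0547) changed sign. The ratio of summed CPM of all structural subunits was 1.71 by total count, 1.80 less the 50 genes of highest count, 1.81 by upper quartile, 1.87 by DESeq2 size factors and 1.84 without Atp5b. By total count, by total count less the top 50 genes and by upper quartile, it was 1.57, 1.66 and 1.67 for complex I, 1.501, 1.59 and 1.60 for II, 1.42, 1.504 and 1.51 for III, 1.83, 1.94 and 1.95 for IV, and 1.89, 2.001 and 2.01 for V; DESeq2 size factors gave 1.73 for I and 2.08 for V. Without the subunit of highest count in the expanded library (Sdha, Cox4i1 and Atp5b), the ratio was 2.34 for complex II, 2.20 for IV and 1.98 for V. All these ratios stayed above 1. Members at least 2-fold lower rested on Cox7c: 0 structural genes under the 5 CPM filter or without subunits of 20% or more shared sequence (0 in complex IV), 3 without a filter (2 in IV and 1 in V), and 2 when complexes followed symbol prefixes (1 in V, Atp5sl). Without shared sequence the complex IV median was 1.02. The last 2 settings were chosen after seeing the data. Prior counts of 0.5 and 5 moved none of these medians past the median counting error of single folds and none of the 2-fold counts by over 1.5 times.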
